A study of Mus musculus with 18 samples.

Results

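Whole brains of mouse pups dosed with CT-179, which inhibits OLIG2, were compared with whole brains of pups given vehicle. The comparison held 6 of the 18 libraries of the study, which also profiled cultured cells exposed to the compound. Libraries were chosen by their treatment label, and there were 3 per group. RNA was sequenced from brains taken at postnatal day 15, after 12 days of dosing that began at postnatal day 3. All 6 libraries carry the genotype label Ptch1+/-, together with the letters IR, whose meaning is not stated. Both groups therefore share the Ptch1 genotype and whatever IR stands for, and no wild-type brain was among these libraries. The labels do not state that each library is a separate animal, and p-values therefore cover the spread between these 6 libraries, part of which may be technical.

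Every direction below rests on the treatment label. The title of each CT-179 library names the vehicle as well as CT-179, and the sample descriptions mark CT-179 libraries with V and vehicle libraries with C. Had the labels been crossed, all directions would be opposite. An inhibitor of a protein need not alter the transcript of its target, so the Olig2 transcript cannot check the labels. No other gene was used to check them.

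OLIG2 is a basic helix-loop-helix factor of neural progenitors and of the oligodendrocyte lineage, the cells that make the myelin sheath around axons. It directs the birth of oligodendrocyte precursors and, with OLIG1 and SOX10, their differentiation. PTCH1 is the receptor that holds the Sonic hedgehog (SHH) pathway off, and mice with a single working copy of Ptch1 can develop medulloblastoma from the granule neuron precursors of the cerebellum. Myelination of the mouse brain is under way in the weeks after birth, so oligodendrocyte, SHH and proliferation genes are the groups described first.

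In the 6-library comparison, 0 of 13422 tested genes were higher and 0 were lower with CT-179 at an adjusted p of 0.05 (limma on log2(FPKM + 1), Benjamini-Hochberg). FPKM expresses the fragments of a gene relative to its length and to the library's depth, and a gene was tested when it reached 1 FPKM in at least 3 libraries. The smallest adjusted p was 0.97. At an unadjusted p under 0.05 there were 490 genes (3.65% of those tested), of which 204 (1.52%) were higher and 286 (2.13%) lower. The median 95% interval of a gene spanned 0.23 log2 to either side of its estimate, and 95% of genes had an estimate within 0.25 log2 of 0. Without vehicle replicate 2, a library that stood apart, limma called 1 gene (0.00745%), the retrogene Tpm3-rs7, and 309 genes (2.3%) had an unadjusted p under 0.05.

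The libraries differed in ways that the treatment labels do not describe. Vehicle replicate 2 had an implied depth of 1.70e+07 reads, and the other 5 libraries had 4.60e+07 to 6.09e+07. Its Lars2 level, that of the mitochondrial leucyl-tRNA synthetase gene, was 15416 FPKM, against 71.7 to 83.2 FPKM in the other 5 libraries. In the same library Rn7sk, a small nuclear RNA that holds back transcription elongation, stood at 2829 FPKM against 36.1 to 45.4 FPKM elsewhere. Correlations between libraries on the log2(FPKM + 1) scale still lay between 0.9814 and 0.9941.

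The sexes were also spread unevenly over the groups. Xist, the RNA that silences an X chromosome in females, was at 0.0803, 12.4 and 0.0192 FPKM in CT-179 brains, against 20.6, 25.1 and 0.239 FPKM in vehicle brains. Ddx3y, a Y-linked RNA helicase gene, was at 12.2, 0.00432 and 12.6 FPKM in CT-179 brains, against 0.0109, 0.0342 and 13.3 FPKM in vehicle brains. By these transcripts CT-179 replicates 1 and 3 and vehicle replicate 3 were male, and the other 3 libraries were female. A treatment comparison with sex as a term, added after the data were seen, called 0 genes in either direction and left 718 at an unadjusted p under 0.05 (limma).

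**Figure D1:**
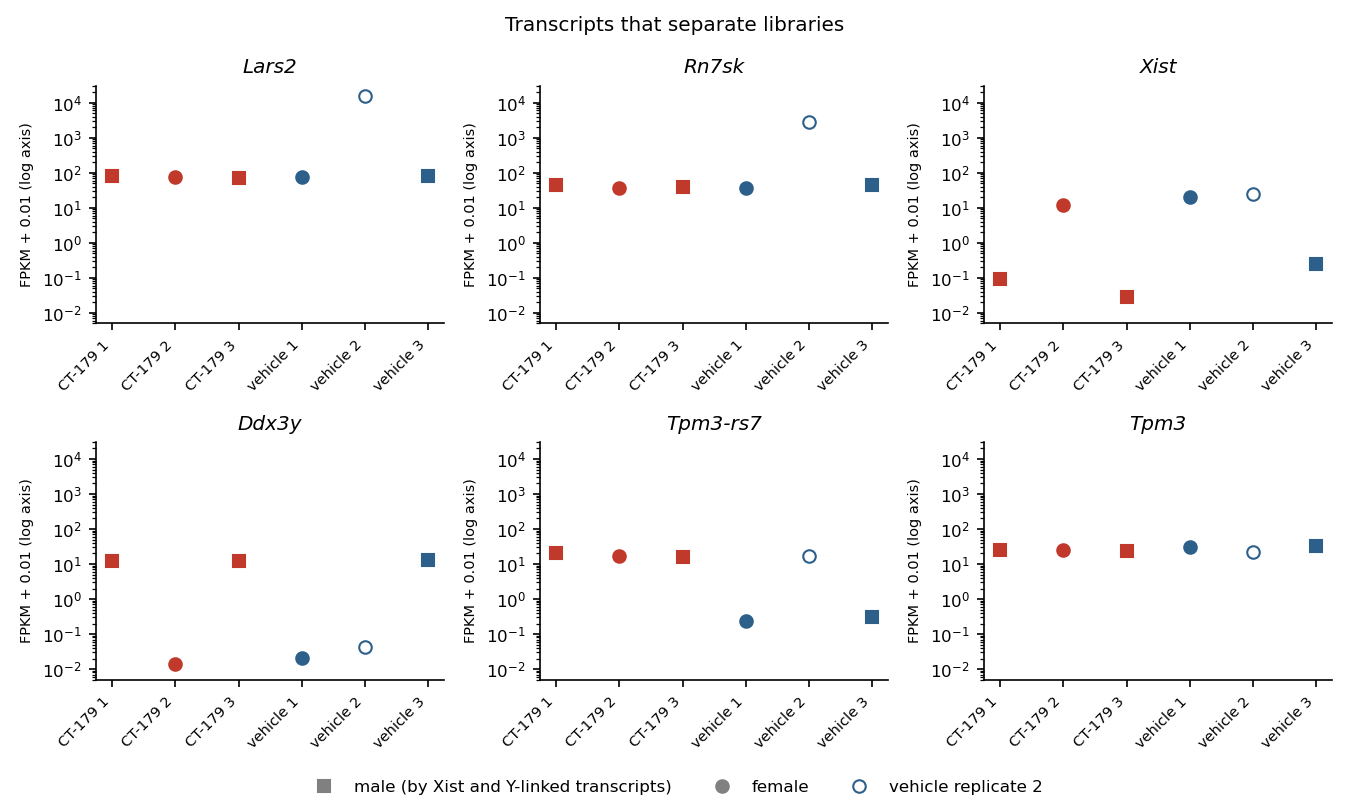
FPKM plus 0.01 on a log axis for 6 transcripts in each of the 6 libraries, with 1 point per library, squares for males and circles for females as read from Xist and Y-linked transcripts, and an open circle for vehicle replicate 2. Lars2 and Rn7sk were high in vehicle replicate 2, Xist and Ddx3y split the libraries by sex, and Tpm3-rs7 was low in vehicle replicates 1 and 3.

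The brain label was checked against regional markers, and a marker of the forebrain was low. Emx1, a cortical transcription factor, was at 1.39, 1.45 and 0.152 FPKM in CT-179 brains, against 0.210, 1.01 and 0.186 FPKM in vehicle brains. Cerebellar genes were high throughout, with Pcp2 of Purkinje cells at 189, 137 and 145 FPKM in CT-179 brains, against 136, 134 and 219 FPKM in vehicle brains. Emx1 was lowest in CT-179 replicate 3 and in vehicle replicates 1 and 3, and low in the other 3 libraries too, although all 6 are labelled whole brain. How much forebrain each library holds was not tested.

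Forebrain genes did not all follow these 3 libraries. Summed over the 14 listed forebrain and striatal neuron genes, FPKM was 227, 192 and 198 in CT-179 brains, against 181, 174 and 180.1 in vehicle brains, so the groups were separate and vehicle replicate 2 was the lowest library. Of the 11 that were tested, 9 were above 0, 3 had separate groups and the median was 0.18 log2, or 0.07 without CT-179 replicate 1 and 0.08 with TPM scaling without Lars2 and Gm15564. Over all genes tested, 5.71% had separate groups with CT-179 higher and 4.6% with CT-179 lower. Summed over 18 neuronal synapse genes, FPKM was 2977, 2952 and 2869 in CT-179 brains, against 2703, 2593 and 2601 in vehicle brains, and these groups were separate too. Neither sum was scaled to the library's total FPKM. That total was 438169, 372047 and 385201 in CT-179 brains, against 352957, 378193 and 388103 in vehicle brains. Lars2 and Gm15564 made up 19712 of the total of vehicle replicate 2. Whether the groups stay separate as shares of these totals was not tested. The median of the synapse genes was 0.13 log2, with 15 of 18 above 0, and 0.01 with that TPM scaling. The same scaling moved the median of all genes from 0.02 to -0.09.

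Single neuronal genes did follow the pattern of Emx1. Camk2a, a synaptic kinase, was at 45.6, 42.5 and 20.8 FPKM in CT-179 brains, against 21.7, 34.5 and 20.4 FPKM in vehicle brains, and the groups overlapped. Crym and Ddn, chosen after their values were seen, split the libraries in the same way. Crym, a thyroid hormone binding protein, was at 21.2, 11.1 and 2.06 FPKM in CT-179 brains, against 1.51, 5.94 and 1.85 FPKM in vehicle brains. Ddn, a protein of dendrites, was at 20.04, 20.1 and 1.40 FPKM in CT-179 brains, against 2.73, 10.6 and 1.61 FPKM in vehicle brains. CT-179 replicates 1 and 2 and vehicle replicate 2 were the 3 higher libraries for both genes. Hoxb8, a homeobox gene of the spinal cord and caudal hindbrain, also chosen after its values were seen, was at 13.1, 7.25 and 14.2 FPKM in CT-179 brains, against 5.13, 10.1 and 6.03 FPKM in vehicle brains.

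Olig2 (ENSMUSG00000039830.9), on mm10 chromosome 16 from 91225457 to 91228677, encodes the protein that CT-179 inhibits. It was at 25.9, 28.4 and 28.7 FPKM in CT-179 brains, against 26.9, 23.3 and 23.6 FPKM in vehicle brains. The groups overlapped through vehicle replicate 1. Its log2 fold change was 0.16 (95% interval -0.03 to 0.36, limma adjusted p = 0.97). Olig1, the neighbouring gene on chromosome 16 that encodes a related factor, was at 196, 178 and 194 FPKM in CT-179 brains, against 160, 157 and 163 FPKM in vehicle brains. All 3 CT-179 libraries lay above all 3 vehicle libraries, by 0.24 log2 (95% interval 0.06 to 0.42), with an unadjusted p of 0.0158 and an adjusted p of 0.97 (limma).

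Of the 12 transcription factors of the oligodendrocyte lineage, 7 were above and 5 below 0, and the median was 0.07 log2, or 0.02 to 0.04 without CT-179 replicate 1 or 3 or vehicle replicate 1 or 3. Over all genes tested, 56% were above and 44% below 0 and the median was 0.02, and without vehicle replicate 2 53.5% were above 0. Sox10, the factor that drives myelin gene transcription, was at 44.6, 38.5 and 41.6 FPKM in CT-179 brains, against 36.9, 40.8 and 41.2 FPKM in vehicle brains. Tcf7l2, a WNT-pathway factor of differentiating oligodendrocytes, had the lowest value of the list, -0.36 log2. It was at 3.07, 6.37 and 8.85 FPKM in CT-179 brains, against 6.59, 7.13 and 9.23 FPKM in vehicle brains, so CT-179 replicate 1 stood alone. The sign of the list median turned with TPM scaling, to -0.02, and to -0.05 when TPM was computed without Lars2 and Gm15564, the 2 genes that took 12.99% of the reads of vehicle replicate 2. Those scalings moved the median of all genes to -0.07 and -0.09.

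Markers of oligodendrocyte precursors were split evenly, with 7 of 14 above and 7 below 0 and a median of 0.00 log2, which was -0.04 to 0.05 with single libraries left out and -0.10 with TPM scaling without Lars2 and Gm15564. None of their groups was free of overlap, and 0 had an unadjusted p under 0.05. Pdgfra, the growth factor receptor that defines these cells, was at 4.50, 5.76 and 6.08 FPKM in CT-179 brains, against 5.25, 6.99 and 5.30 FPKM in vehicle brains. Its log2 fold change was -0.09 (95% interval -0.39 to 0.22, limma adjusted p = 0.98), and 0.03 without vehicle replicate 2. Gpr17, a receptor of precursors committed to differentiate, was at 33.2, 47.5 and 46.3 FPKM in CT-179 brains, against 43.2, 40.5 and 38.05 FPKM in vehicle brains. The summed FPKM of the 14 markers was 300.3, 292 and 310 in CT-179 brains, against 271, 282 and 290.3 in vehicle brains.

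Myelin and mature oligodendrocyte genes all lay above 0. All 16 had a positive log2 fold change, from 0.09 to 0.33 with a median of 0.24, in the 6-library comparison and also without vehicle replicate 2 (median 0.21). The median was smaller with TPM scaling, at 0.15, and at 0.12 when TPM was computed without Lars2 and Gm15564. Those scalings also moved the median of all genes tested, from 0.02 to -0.07 and -0.09. In 9 of them every CT-179 library was above every vehicle library, where 5.71% of all genes tested were ordered in that way, and 10.3% had separate groups in either direction. At an unadjusted p under 0.05 there were 7 (limma), where 1.52% of all genes tested were higher at that p. None, 0 of them, passed the adjustment over all genes. Gene lists were chosen with earlier results of these data known, so these shares are not independent evidence. The summed FPKM of the 16 genes was 8187, 6648 and 7599 in CT-179 brains, against 6296, 6061 and 6479 in vehicle brains. The groups were separate in these sums, which were not scaled to the library totals given above, and CT-179 replicate 2 was close to the highest vehicle library. In bulk tissue, more cells of a type and more RNA per cell cannot be told apart.

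Fa2h, the fatty acid hydroxylase that makes the hydroxylated galactolipids of myelin, had the smallest p of the list. It was at 87.3, 86.2 and 90.4 FPKM in CT-179 brains, against 75.5, 68.8 and 65.7 FPKM in vehicle brains, a log2 fold change of 0.33 (SE 0.08, unadjusted p = 0.00325, limma adjusted p = 0.97). Cldn11, the tight junction protein of myelin, was at 598, 526 and 561 FPKM in CT-179 brains, against 465, 427 and 453 FPKM in vehicle brains (log2 fold change 0.32). In both genes the groups were separate. Mbp, which encodes myelin basic protein, was at 1967, 1548 and 1769 FPKM in CT-179 brains, against 1547, 1441 and 1525 FPKM in vehicle brains. Its lowest CT-179 library and its highest vehicle library differed by less than 1 FPKM, and its log2 fold change was 0.22 (95% interval -0.08 to 0.52, limma adjusted p = 0.97).

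**Figure D2:**
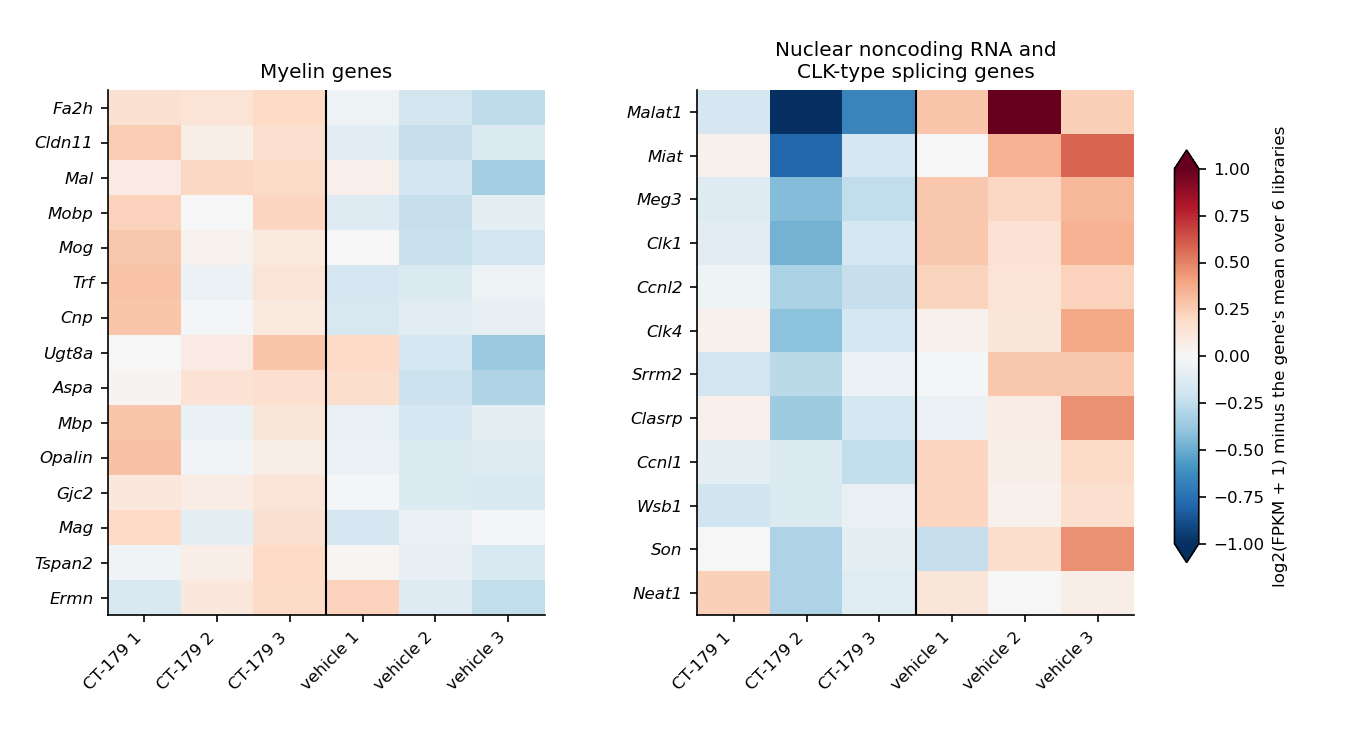
Colour gives log2(FPKM + 1) minus the gene's mean over the 6 libraries, for 15 of the myelin genes on the left and the 12 nuclear noncoding RNA and CLK-type splicing genes on the right, with CT-179 libraries left of the vertical line and vehicle libraries right of it. Myelin genes were mostly redder with CT-179 and nuclear RNAs bluer, CT-179 replicate 2 was the lowest library for Malat1, Meg3 and Clk1, and values beyond 1 take the end colours.

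Cerebellar and SHH genes lay slightly below 0. Of 15 tested SHH pathway genes and targets, 1 was above and 14 below 0, with a median log2 fold change of -0.08. Without vehicle replicate 2 the counts were 5 above and 10 below 0, where 46.5% of all genes lay below 0, with a median of -0.04. The median was -0.01 without CT-179 replicate 1, -0.14 without CT-179 replicate 3 and -0.19 without vehicle replicate 1. None had an unadjusted p under 0.05 in the 6-library comparison. Cdon, an SHH co-receptor, was the 1 member whose groups did not overlap, and was lower with CT-179. Over all genes tested, 4.6% were separate and lower. Gli3, a GLI-family gene of the pathway, was the 1 listed gene that stayed under the filter. It was at 0.659, 0.529 and 0.675 FPKM in CT-179 brains, against 0.447, 0.785 and 0.740 FPKM in vehicle brains.

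Ptch1, itself a transcriptional target of the pathway, was at 5.23, 6.58 and 6.31 FPKM in CT-179 brains, against 7.38, 7.78 and 6.56 FPKM in vehicle brains. CT-179 replicate 2 and vehicle replicate 3 differed by little and made the groups overlap, and the log2 fold change was -0.23 (95% interval -0.47 to 0.01, limma adjusted p = 0.97). Because both groups are heterozygous, these levels do not check the genotype. Gli1, the pathway's activator and most used readout, was at 2.70, 3.44 and 4.23 FPKM in CT-179 brains, against 2.86, 5.24 and 4.74 FPKM in vehicle brains. Its log2 fold change was -0.23 with all 6 libraries and -0.09 without vehicle replicate 2, with overlapping groups and limma adjusted p of 0.97 and 1.00. Ccnd1, a cyclin induced by SHH in granule precursors, was at 17.5, 14.4 and 18.5 FPKM in CT-179 brains, against 12.6, 16.4 and 18.4 FPKM in vehicle brains.

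**Figure D3:**
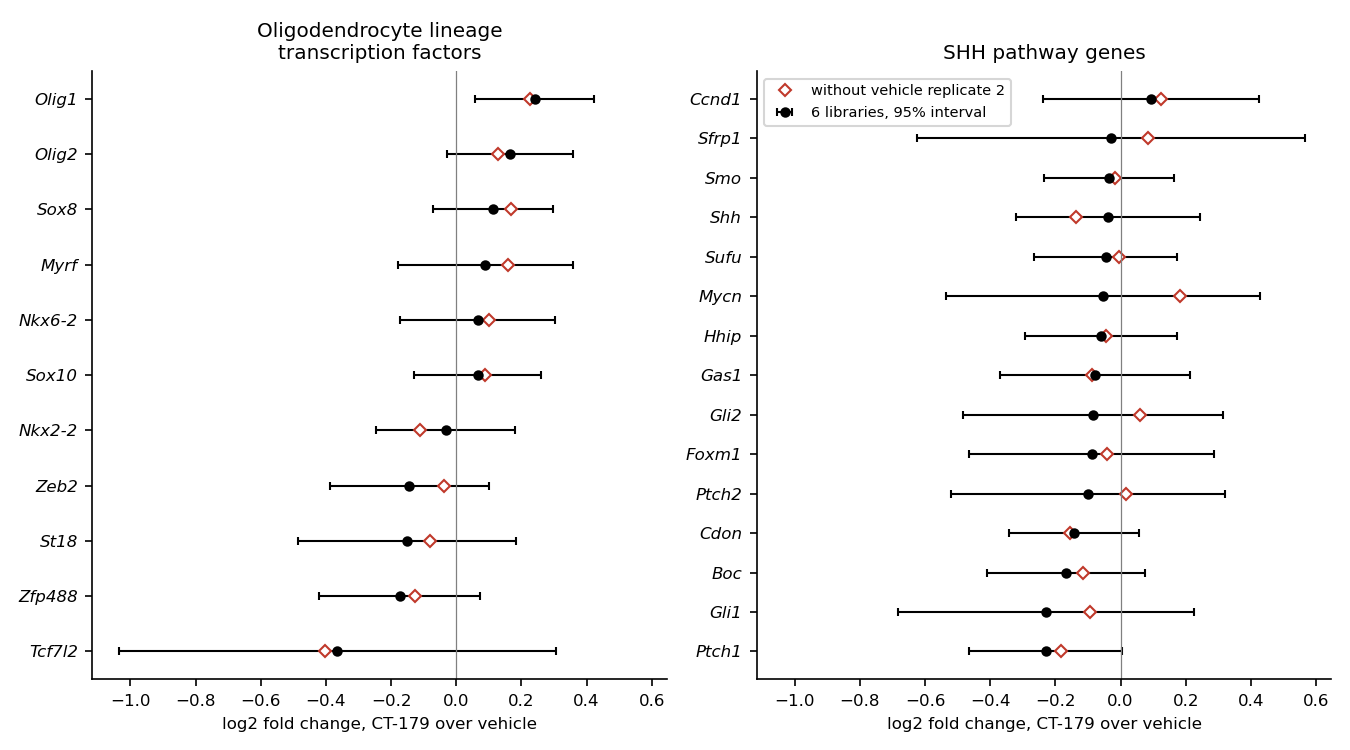
Log2 fold change, CT-179 over vehicle, of 11 oligodendrocyte lineage transcription factors (left) and the 15 tested SHH pathway genes (right), with black points and 95% intervals for 6 libraries and open diamonds for the estimate without vehicle replicate 2. Olig1 is the 1 gene drawn whose interval lies wholly to one side of 0, and Ptch1 reaches 0.01.

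Atoh1, the defining transcription factor of granule neuron precursors, was at 0.426, 0.744 and 1.18 FPKM in CT-179 brains, against 0.321, 1.41 and 1.07 FPKM in vehicle brains. Of the 12 granule precursor genes 2 were above and 10 below 0, with no gene whose groups were separate. Their median was -0.10 log2, and -0.05 without CT-179 replicate 1, -0.22 without vehicle replicate 1 and -0.02 without vehicle replicate 3. Mitotic genes followed the libraries more than the groups. Mki67, a marker of cycling cells, was at 1.84, 1.35 and 2.96 FPKM in CT-179 brains, against 1.12, 3.08 and 3.22 FPKM in vehicle brains (log2 fold change -0.15, limma adjusted p = 0.98). The summed FPKM of the 26 listed G2/M genes was 40.6, 37.3 and 56.1 in CT-179 brains, against 30.9, 61.1 and 57.0 in vehicle brains. Of the 19 that were tested, 16 were below 0 with 6 libraries, and 12 were above 0 without vehicle replicate 2. Purkinje cell genes had 2 of 12 above 0 and a median of -0.03 with 6 libraries, and 0 of 12 and -0.12 without vehicle replicate 2. That median was also -0.14 without CT-179 replicate 2, -0.01 without CT-179 replicate 1, -0.07 without vehicle replicate 1 and -0.06 without vehicle replicate 3. Cerebellar granule neuron genes had 4 of 11 above 0 and a median of -0.07, which was 0.06 without CT-179 replicate 1 and 0.03 without vehicle replicate 1.

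The 12 nuclear noncoding RNA and CLK-type splicing genes all lay below 0. The list was drawn up with results of the cultured cells and earlier results of these data known. Its direction and its shares are therefore not independent evidence. The median log2 fold change was -0.35 with 6 libraries and -0.38 without vehicle replicate 2. In 7 genes every CT-179 library was below every vehicle library, where 4.6% of all genes tested were ordered in that way. At an unadjusted p under 0.05 there were 9 (limma), where 2.13% of all genes tested were lower at that p, and 0 passed the adjustment. The summed FPKM of the list was 234, 172 and 203 in CT-179 brains, against 277, 390.1 and 311 in vehicle brains, so the groups were separate.

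Malat1, an abundant long noncoding RNA of nuclear speckles, was at 67.7, 36.4 and 47.8 FPKM in CT-179 brains, against 92.5, 195 and 89.8 FPKM in vehicle brains. Its log2 fold change was -1.24 (SE 0.32, unadjusted p = 0.005001) with 6 libraries and -0.88 without vehicle replicate 2, where the adjusted p stayed at 0.97 and 1.00 (limma). Meg3, an imprinted long noncoding RNA, was at 5.47, 4.25 and 4.97 FPKM in CT-179 brains, against 7.56, 7.20 and 7.95 FPKM in vehicle brains (log2 fold change -0.54, unadjusted p = 0.000485, limma adjusted p = 0.97). Clk1, a kinase of splicing factors that retains introns in its own nuclear transcripts, was at 13.1, 10.01 and 12.5 FPKM in CT-179 brains, against 17.4, 15.9 and 18.5 FPKM in vehicle brains. CT-179 replicate 2 was the lowest library for each of these 3 genes. Neat1, the RNA scaffold of paraspeckles, overlapped between groups, at 3.24, 1.90 and 2.31 FPKM in CT-179 brains, against 2.90, 2.59 and 2.75 FPKM in vehicle brains.

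A property of the transcripts moved with the comparison. Over 11973 protein-coding genes the log2 fold change was lower the longer the exonic sequence (Spearman's rho -0.40 across genes, which are not independent replicates). The shortest 10% of genes had a median of 0.07 log2 and the longest 10% one of -0.07. Without vehicle replicate 2 rho was -0.28 and the medians were 0.05 and -0.04. The part of transcript length in the values of the gene lists was not tested.

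Single genes with the smallest p differed by less than 1 log2. Cdkn1a, the cyclin-dependent kinase inhibitor p21, was at 23.8, 21.6 and 19.7 FPKM in CT-179 brains, against 16.0, 16.6 and 16.0 FPKM in vehicle brains (log2 fold change 0.40, unadjusted p = 0.00142, limma adjusted p = 0.97). The vehicle libraries lay within 1 FPKM of each other and all CT-179 libraries above them. Of 14 tested p53 targets, the group to which Cdkn1a belongs, 9 were above 0 with a median of 0.04. That median was -0.07 with TPM scaling without Lars2 and Gm15564, which moved the median of all genes from 0.02 to -0.09. Cdkn1a was the 1 member whose groups were separate, where 5.71% of all genes tested were separate and higher. Ddb2, a DNA damage sensor and also a p53 target, was on the other side, at 2.27, 2.20 and 2.21 FPKM in CT-179 brains, against 3.23, 3.15 and 3.15 FPKM in vehicle brains (log2 fold change -0.37, unadjusted p = 0.00109, limma adjusted p = 0.97). Ddb2 is not in the p53 list that was counted here.

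Cd47, the surface protein that restrains phagocytes, was at 54.4, 47.3 and 48.1 FPKM in CT-179 brains, against 32.6, 35.3 and 40.6 FPKM in vehicle brains. Trh, the precursor of thyrotropin-releasing hormone, was at 9.20, 6.22 and 7.57 FPKM in CT-179 brains, against 4.86, 3.71 and 4.74 FPKM in vehicle brains. Sstr3, a somatostatin receptor of neuronal cilia, was at 5.25, 5.36 and 4.83 FPKM in CT-179 brains, against 3.67, 3.84 and 3.83 FPKM in vehicle brains. Each of the 3 had separate groups, log2 fold changes of 0.46, 0.66 and 0.36, and a limma adjusted p of 0.97. They were chosen by p in these same libraries, and 5.71% of all genes tested were separate and higher.

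Genes lower with CT-179 with the smallest p were similarly small in size. Coro6, an actin-binding coronin, was at 7.77, 7.16 and 8.35 FPKM in CT-179 brains, against 11.4, 10.4 and 11.6 FPKM in vehicle brains (log2 fold change -0.47). Tle2, a Groucho-family corepressor, was at 7.73, 6.63 and 7.22 FPKM in CT-179 brains, against 9.88, 9.86 and 12.1 FPKM in vehicle brains (log2 fold change -0.50). Paxbp1, a chromatin adaptor for PAX proteins, and Dnase1l2, a DNase, had log2 fold changes of -0.39 and -0.45. All 4 had separate groups and a limma adjusted p of 0.97, where 4.6% of all genes tested were separate and lower. Each gene chosen by smallest p and named here kept its sign under all 19 alternatives. Their groups were separate in the same libraries that chose them, so leaving out a single library could not turn a sign. The kept signs are therefore not independent evidence.

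**Figure D4:**
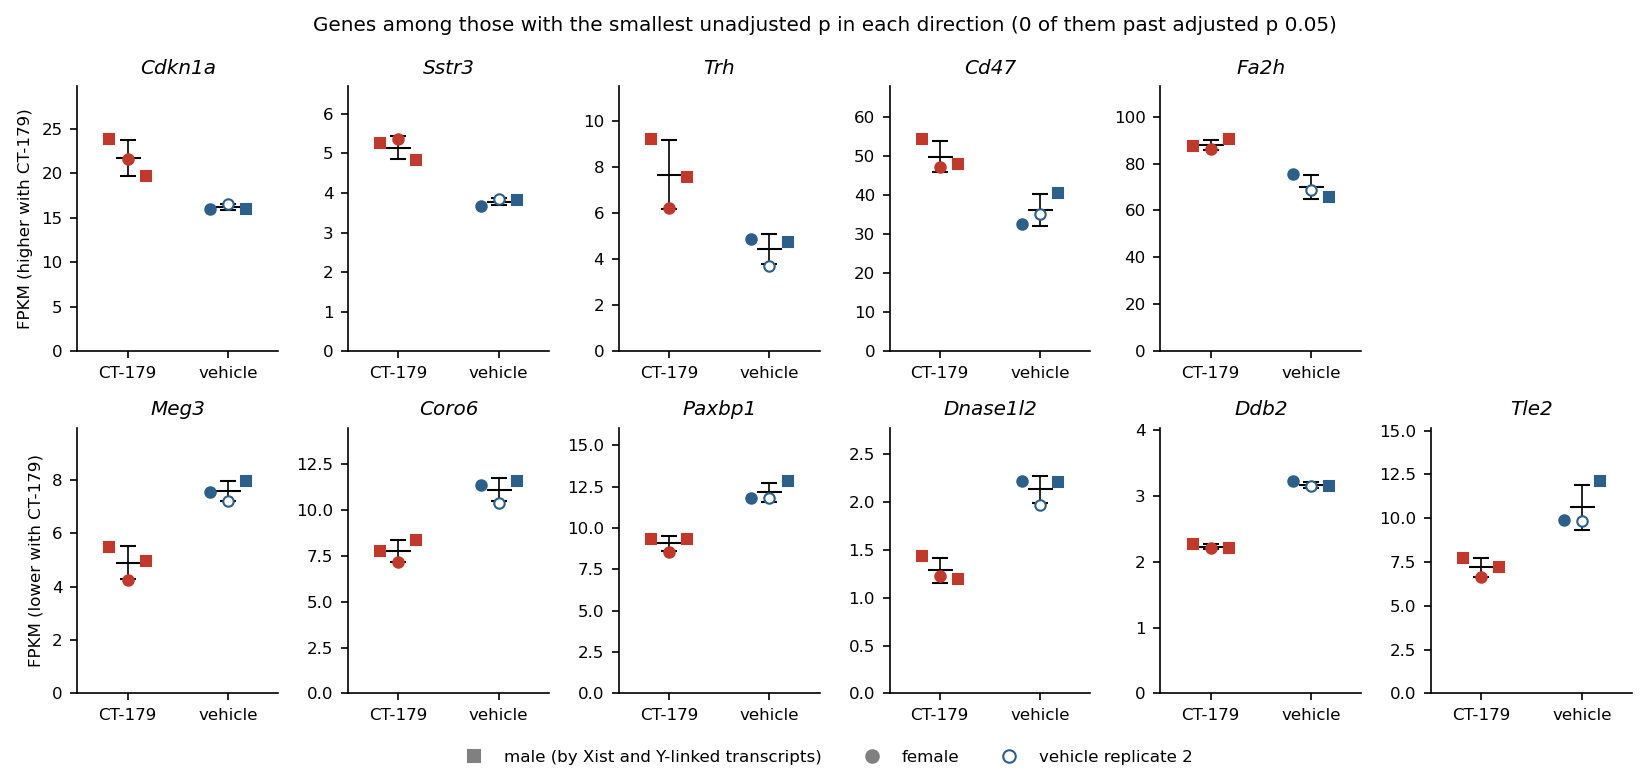
FPKM per library of 5 genes higher and 6 genes lower with CT-179 among those with the smallest unadjusted p, with CT-179 in red and vehicle in blue, squares for males, circles for females, an open circle for vehicle replicate 2, and bars for the mean and SD of 3 libraries. In all 11 genes the groups do not overlap, and the limma adjusted p of each is 0.97. The genes were chosen by p in these same libraries, and 10.3% of all genes tested had groups that do not overlap.

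Glucocorticoid-responsive genes lay above 0 in 12 of 13, where 56% of all genes did. Their median was 0.16 log2, and 0.19 without vehicle replicate 2. Mt2, a metallothionein, was at 768, 522 and 526 FPKM in CT-179 brains, against 365, 403 and 495 FPKM in vehicle brains. Fkbp5, a co-chaperone of the glucocorticoid receptor, was at 4.15, 4.20 and 3.79 FPKM in CT-179 brains, against 3.43, 3.43 and 3.24 FPKM in vehicle brains. These 2 genes and Cdkn1a were the members with separate groups and an unadjusted p under 0.05, where 5.71% of all genes were separate and higher and 1.52% were higher at that p. Per1, a clock gene that glucocorticoids also induce, was the 1 member below 0.

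Interferon-stimulated genes were below 0 in 13 of 14, where 44% of all genes were, with a median of -0.10 log2. That median rested on single libraries, at -0.27 without CT-179 replicate 1, -0.05 without CT-179 replicate 2 and -0.02 without CT-179 replicate 3. Ifit3, an antiviral effector, was at 3.25, 4.26 and 3.92 FPKM in CT-179 brains, against 5.98, 5.43 and 7.05 FPKM in vehicle brains (log2 fold change -0.57, unadjusted p = 0.00121, limma adjusted p = 0.97). Stat2, a transducer of type I interferon signals, was at 7.78, 7.87 and 7.67 FPKM in CT-179 brains, against 9.69, 8.53 and 10.4 FPKM in vehicle brains. Ifit3 and Stat2 were the members with separate groups (4.6% of all genes were separate and lower), and Isg15, a ubiquitin-like effector, overlapped at 5.005, 2.64 and 2.33 FPKM in CT-179 brains, against 3.84, 3.93 and 3.61 FPKM in vehicle brains.

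Circadian clock genes were below 0 in 13 of 15, where 44% of all genes were, with a median of -0.12 log2. Per2, Per3, Clock and Hlf had separate groups, where 4.6% of all genes were separate and lower. The median was -0.24 with TPM scaling without Lars2 and Gm15564, which moved the median of all genes from 0.02 to -0.09. Per3, a period gene, was at 3.31, 3.71 and 3.64 FPKM in CT-179 brains, against 4.36, 4.43 and 4.45 FPKM in vehicle brains (unadjusted p = 0.0109, limma adjusted p = 0.97). The time of day of harvest is not given in the sources used here.

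Metabolic, stress and glial lists had small medians whose size depended on the scaling. TPM scaling without Lars2 and Gm15564 also moved the median of all genes tested, from 0.02 to -0.09 log2. With the main scaling, 56% of all genes lay above 0. Cholesterol synthesis genes, which growing myelin depends on, were above 0 in 21 of 25 with a median of 0.11 log2, which turned to -0.01 with TPM scaling without Lars2 and Gm15564. Hypoxia and glycolysis genes were above 0 in 14 of 21 with a median of 0.12 log2, and 7 of them, among them Slc2a1, the glucose transporter of the blood-brain barrier, had separate groups, where 5.71% of all genes were separate and higher. The hypoxia median was 0.07 without CT-179 replicate 1 and 0.02 with that TPM scaling. Cytosolic heat shock genes were above 0 in 12 of 12 with a median of 0.13 log2. The heat shock median was 0.07 without vehicle replicate 2 and 0.02 with that TPM scaling. Cryab, a small heat shock protein also made by oligodendrocytes, was the 1 member with an unadjusted p under 0.05. Over all genes tested, 1.52% were higher at that p. Astrocyte markers had a median of 0.11 log2, which also turned with that TPM scaling, and Gfap was at 162, 133 and 141 FPKM in CT-179 brains, against 127, 133 and 139.5 FPKM in vehicle brains. Microglia genes had a median of 0.01 and endothelial genes one of 0.02, which were -0.11 and -0.09 with that scaling. With single libraries left out they were -0.09 to 0.08 and 0.02 to 0.09.

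Markers of tissues beside the brain parenchyma varied between single libraries. The summed FPKM of 13 choroid plexus genes, led by the thyroxine carrier Ttr, was 2585, 1274 and 1373 in CT-179 brains, against 1577, 1488 and 1170.2 in vehicle brains. CT-179 replicate 1 was the library apart. The summed FPKM of red blood cell genes was 388, 227 and 165 in CT-179 brains, against 157, 255 and 167 in vehicle brains. The growth hormone gene Gh of the pituitary was listed at 0 in all 3 CT-179 brains and stood at 0.0293, 0 and 8.51 FPKM in vehicle brains. The part of these tissues in the higher myelin genes was not tested.

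**Figure D5:**
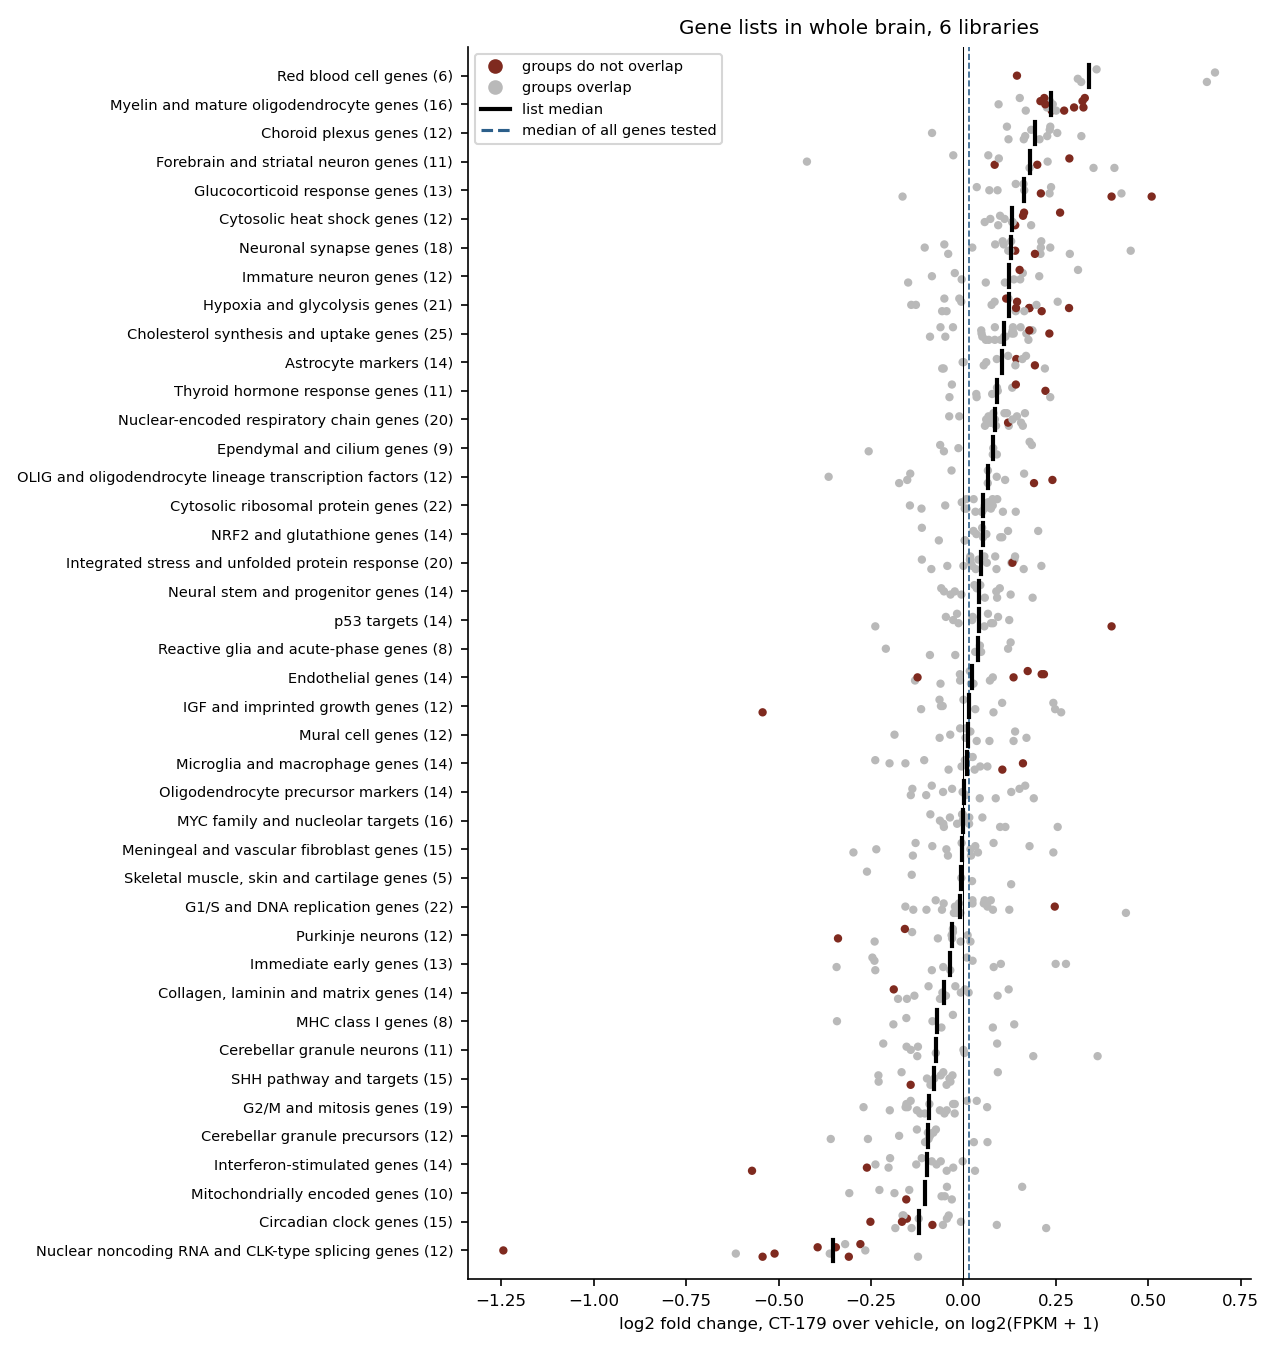
Log2 fold change, CT-179 over vehicle, of every tested member of 42 gene lists, 1 point per gene, with the number tested in brackets, black bars for list medians and a dashed line for the median of all genes tested (0.02). Dark points are genes whose groups do not overlap, and they make up 9 of 16 myelin genes, 7 of 12 nuclear noncoding RNA and splicing genes and 7 of 21 hypoxia and glycolysis genes. Over all genes tested, 5.71% did not overlap and were higher, and 4.6% did not overlap and were lower.

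The gene called without vehicle replicate 2 was Tpm3-rs7, a single-exon retrogene on mm10 chromosome 14, 113314608 to 113316754 (ENSMUSG00000058126.7). It was at 21.0, 16.9 and 16.4 FPKM in CT-179 brains, against 0.223, 16.7 and 0.304 FPKM in vehicle brains. The 6 libraries thus fell on 2 levels, and vehicle replicate 2 shared the high level of the CT-179 brains. The log2 fold change was 3.91 without vehicle replicate 2 (limma adjusted p = 0.000314) and 2.64 with all 6 libraries (adjusted p = 0.97). Tpm3, the parent gene of this copy and an actin-binding tropomyosin, was at 25.5, 24.4 and 22.8 FPKM in CT-179 brains, against 30.5, 22.3 and 31.8 FPKM in vehicle brains. The sum of both genes was 46.5, 41.3 and 39.2 FPKM in CT-179 brains, against 30.8, 39.0 and 32.1 FPKM in vehicle brains.

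Reads of this gene are hard to assign, because the retrogene is 99.1% identical to its parent transcript over 2108 aligned positions. Of its 2048 windows of 100 bases, the read length of these libraries, 1020 (49.8%) also occur exactly in the parent gene. The first 150 coding bases of each, from the GENCODE mouse transcripts on mm10, are shown because they hold both the stretches that match and the 3 differences, marked by capitals, by which reads can be told apart. The retrogene stretch lies at chr14:113314676-113314825 on the plus strand, and the Tpm3 stretch comes from the spliced transcript of the gene on chromosome 3.
Tpm3-rs7: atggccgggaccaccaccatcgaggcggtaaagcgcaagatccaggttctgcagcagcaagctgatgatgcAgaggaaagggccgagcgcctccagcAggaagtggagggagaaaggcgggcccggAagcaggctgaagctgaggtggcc
Tpm3: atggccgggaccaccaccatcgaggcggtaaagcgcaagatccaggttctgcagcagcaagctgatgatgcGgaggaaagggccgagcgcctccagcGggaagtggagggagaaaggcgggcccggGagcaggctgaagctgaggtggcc

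A stretch of chromosome 12, chosen after its values were seen, also held pseudogenes that were low in vehicle replicates 1 and 3. Of 11 genes tested there, 3 had separate groups, all of them higher with CT-179, and 1 of these 3 was protein-coding. Over all genes tested 5.71% were separate and higher, and since the stretch was chosen for its values nothing is read from its count. The unprocessed pseudogene Gm46313 (mm10 chromosome 12, 18773494 to 18776375) was at 2.23, 2.26 and 2.47 FPKM in CT-179 brains, against 0.830, 1.44 and 0.664 FPKM in vehicle brains. Gm9269, another pseudogene of the stretch (20275039 to 20278028), was at 6.16, 7.89 and 8.39 FPKM in CT-179 brains, against 2.98, 6.82 and 3.07 FPKM in vehicle brains. Vehicle replicate 2 was the highest vehicle library for both, and for Gm9269 it lay within the CT-179 range.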

How the data were processed

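Expression was analysed in 6 brain libraries. Extraction used RNeasy columns, and a SMARTer mRNA kit gave libraries that were read from both ends over 100 bases, per the labels' protocols. The submitters' processing notes name mm10 as the genome and list STAR 2.6.0c, Trim Galore 0.5.0, HTSeq 0.6.1p2, R 3.6 and edgeR 3.28.1. Counting settings, strand and annotation release are not given in the sources used here, so reads of overlapping, antisense or near-identical genes may be shared. The authors deposited FPKM per gene and library for 19464 genes, and the authors' own fold changes and p-values were not used. The table held 0 columns of other samples.

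A gene was tested if 3 or more of the 6 libraries reached 1 FPKM (13422 genes). Values were compared as log2(FPKM + 1), a scale that understates the change of low genes, by limma 3.58.1 under R 4.3.3 with a variance trend and two-sided p, CT-179 over vehicle, and Benjamini-Hochberg adjustment over all genes tested at 0.05. FPKM are not counts, so no count model was run. Depth was inferred from low values times exonic length in GENCODE (97.0% of identifiers matched), of which 93.6% to 98.5% were whole multiples of 1 read within 0.1 read, up to 20 reads. The procedure was tested on simulated data with the same spread for every gene and with changes larger than most estimates here. That test does not show what could be detected in these libraries.

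The libraries, gene lists and tests were chosen with earlier results of these data known. The 47 lists are described by counts and medians beside those of all genes. The text names 12 genes always, up to 12 genes past the threshold per direction and, where these were fewer than 6, those with the smallest p among named gene models, which gave 6 per direction, and a few genes are not reported here. List members given as examples were chosen after their values were seen. The replicate numbers did not pair the samples. Deviations of each library from its group's gene means correlated at -0.39, 0.11 and -0.04 between same-numbered libraries. Alternatives covered each library left out, pseudocount, filters, scaling, array weights and the replicate block, and 2 with sex as a term were added after seeing the data.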

Additional observations from a re-analysis of the deposited data

Results flagged for a closer look

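For 3 genes a sex by treatment term in limma passed the threshold (92 genes at an unadjusted p under 0.05). The females included 1 CT-179 library (replicate 2) and the males 1 vehicle library (replicate 3), and these 2 libraries stood apart from the other 4 in all 3 genes. A difference between the sexes therefore cannot be told apart from those single libraries, and sex was read from transcripts. Retsat, retinol saturase, had an effect in males minus that in females of -2.21 log2 (adjusted p = 0.012), at 3.16, 9.22 and 3.48 FPKM in CT-179 brains, against 3.45, 3.44 and 7.71 FPKM in vehicle brains. The pseudogene Cox5b-ps had a difference of 4.47 log2 (adjusted p = 0.0065), at 19.9, 3.278 and 24.3 FPKM in CT-179 brains, against 13.3, 24.3 and 3.599 FPKM in vehicle brains. Gm10320 had a difference of 4.92 log2 (adjusted p = 0.0035), at 6.12, 0.152 and 9.53 FPKM in CT-179 brains, against 4.88, 3.15 and 0.230 FPKM in vehicle brains.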

How the results depend on the processing

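Of 38 recomputed counts of called genes, 31 stayed at 0. Leaving out single libraries gave 0 to 1 genes higher and 0 to 1 lower: Tpm3-rs7 (3.91 log2) without vehicle replicate 2, and 1500015A07Rik (-1.99 log2, limma adjusted p = 0.00529) without CT-179 replicate 2. With vehicle replicate 2 left out, 1 gene was higher also with median-of-ratios scaling, a pseudocount of 0.1 or a sex term, and with the replicate block 15 were higher and 3 lower. Those 18 include Tpm3-rs7, Xist, Ddx3y, Eif2s3y, Hbb-bs, Hoxb8 and Crym. In that fit CT-179 replicate 2 had no same-numbered vehicle library, so the estimates rest on replicates 1 and 3. By its transcripts CT-179 replicate 1 was male and vehicle replicate 1 female. With all 6 libraries the replicate block called 0 in either direction (333 at an unadjusted p under 0.05), and same-numbered libraries did not correlate best with each other. Of 436 recomputed log2 fold changes of named genes, 22 changed sign, all of genes near 0. With single libraries left out, Pdgfra ranged from -0.157 to 0.0309, Mki67 from -0.4772 to 0.0186, Ccnd1 from -0.0494 to 0.2028 and Atoh1 from -0.3477 to 0.0874. Without vehicle replicate 2, Pdgfra was 0.0236 with median-of-ratios scaling, 0.0343 with a pseudocount of 0.1 and 0.0411 with a sex term. Mki67 was then 0.0284 with that pseudocount and 0.1666 with the replicate block. Atoh1 was then 0.0823 with median-of-ratios scaling, 0.2392 with that pseudocount, 0.0931 with the replicate block and 0.0393 with a sex term. With all libraries, array weights gave 0.0084 for Mki67 and 0.0242 for Atoh1, TPM scaling gave -0.025 for Sox10, TPM scaling without Lars2 and Gm15564 gave -0.0504 for Sox10 and -0.0185 for Ccnd1, and a sex term gave -0.0116 for Ccnd1. TPM scaling without Lars2 and Gm15564 put the median of all genes at -0.09, against 0.02, and array weights left 1761 genes at an unadjusted p under 0.05 and 0 called. The cause of these changes was not tested. With 3 libraries per group, 1 of them at 1.70e+07 reads, a typical gene's interval of 0.23 log2 to either side limits what could be detected.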

Other observations

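Of the genes tested, 8 fell on 2 levels, with a gap of at least 2 log2 and at least 2 libraries on each side. Xist, Ddx3y, Eif2s3y and Gm29650 split by sex. Tpm3-rs7 is described above. Rpl15-ps6, a processed pseudogene on chromosome 15, was at 0.359, 11.7 and 9.16 FPKM in CT-179 brains, against 0.124, 8.77 and 0.158 FPKM in vehicle brains. Rpl15-ps2, on chromosome 9, was at 0.120, 5.38 and 5.35 FPKM in CT-179 brains, against 0.0411, 4.25 and 0.0790 FPKM in vehicle brains. Both Rpl15 pseudogenes were high in the same 3 libraries. Gm8730 was at 75.7, 26.2 and 1.66 FPKM in CT-179 brains, against 23.6, 31.0 and 1.52 FPKM in vehicle brains. Vehicle replicates 1 and 3 were on the low level of Tpm3-rs7 and of both Rpl15 pseudogenes.

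Slc6a3, the dopamine transporter gene of midbrain neurons, was at 0.106, 3.32 and 2.52 FPKM in CT-179 brains, against 3.95, 1.76 and 4.32 FPKM in vehicle brains. CT-179 replicate 1 was the library near 0. The antisense gene 1500015A07Rik was at 1.73, 7.98 and 1.22 FPKM in CT-179 brains, against 7.97, 9.42 and 9.11 FPKM in vehicle brains, so that CT-179 replicate 2 was at the vehicle level. Snhg11, a small nucleolar RNA host gene, was at 52.3, 29.8 and 43.0 FPKM in CT-179 brains, against 70.2, 70.0 and 79.4 FPKM in vehicle brains (log2 fold change -0.83, unadjusted p = 0.0019, limma adjusted p = 0.97). Its groups were separate, and CT-179 replicate 2 was the lowest library, as for Malat1, Meg3 and Clk1. These genes were chosen after their values were seen.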
